A study of Mus musculus with 10 samples.

Results

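The genes described here are 8 transcription factor genes of early T cell development: *Runx1*, *Runx2*, *Runx3* and their partner *Cbfb*, the Ikaros family genes *Ikzf1*, *Ikzf2* and *Ikzf3*, and *Myb*. They were taken by name from the count table of every library, and all 8 had a row among its 24062 gene rows. Levels are given in CPM, counts scaled to the total of the library. Genes with 1 CPM or more in 2 or more libraries, 12221 of them, were tested, among them 7 of the 8. *Ikzf3* did not reach this level, so it is described by its levels.

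Each of the 10 libraries was made from cultured mouse LSK cells, bone marrow progenitors that carry no lineage markers and have high SCA-1 and KIT. The IgG (no Notch) control comprised 4 libraries, named D1, D2, R1 and R2, of LSK cells grown on control IgG and collected on day 14. The DN1, DN2a and DN2b groups had 2 libraries each, dated 2012 and 2013, of double-negative cells sorted by KIT, CD44 and CD25 from LSK cells grown on immobilized Delta1, a Notch ligand, at high density. All cultures received SCF, FLT-3 ligand, IL-6 and IL-11, and IL-7 was added from day 14 to the cultures that gave DN2a and DN2b cells but not to those that gave DN1 cells. DN1 and the DN2 stages therefore differed in IL-7 and in culture time as well as in stage. DN2a and DN2b likewise differed from IgG in IL-7 and culture time as well as in the ligand and the sort, and in neither comparison can these be told apart. The cells are those of a culture on a plated ligand and a human IgG control, not of a thymus, and replicates came from independent LSK isolates.

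RUNX proteins bind DNA through their Runt domain, and CBFB, which does not bind DNA itself, joins them and strengthens that binding. RUNX1 is known for its need in blood stem cell formation and early T cells, RUNX3 for cytotoxic T cells and RUNX2 for bone, and RUNX proteins can activate a gene or silence it. Ikaros proteins are zinc finger factors that pair with one another and bring the NuRD complex, a chromatin remodeller with histone deacetylases, to genes that include Notch targets. MYB keeps progenitors dividing and is needed at several steps of T cell development.

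*Runx1* (GRCm38 16:92601466-92826149, minus strand) and *Runx3* (4:135120652-135177990, plus strand) each have an upstream and a downstream promoter. The sequences are shown because the balance of these 2 genes is one of the comparisons below. They are the bases before each start in RefSeq (GRCm38.p6) that no annotated exon covers, and capitals mark the RUNX motif, searched as TGTGGT and TGCGGT on both strands, so that TGTGGT reads ACCACA on the strand shown.
Runx3 upstream promoter, 4:135120395-135120644, plus strand: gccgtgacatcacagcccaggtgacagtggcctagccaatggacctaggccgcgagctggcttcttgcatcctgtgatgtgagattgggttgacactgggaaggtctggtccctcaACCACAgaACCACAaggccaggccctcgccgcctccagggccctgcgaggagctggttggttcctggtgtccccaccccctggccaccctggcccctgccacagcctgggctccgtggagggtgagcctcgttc
Runx3 downstream promoter, 4:135152295-135152495, plus strand: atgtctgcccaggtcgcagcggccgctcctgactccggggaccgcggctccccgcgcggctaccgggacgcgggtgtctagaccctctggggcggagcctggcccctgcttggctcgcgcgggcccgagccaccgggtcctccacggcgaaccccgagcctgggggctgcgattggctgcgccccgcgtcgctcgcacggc
Runx1 upstream promoter, 16:92826150-92826324, minus strand: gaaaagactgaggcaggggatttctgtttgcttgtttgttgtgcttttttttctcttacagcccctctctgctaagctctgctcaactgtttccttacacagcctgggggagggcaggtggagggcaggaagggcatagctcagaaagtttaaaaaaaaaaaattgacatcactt
Runx1 downstream promoter, 16:92697330-92697579, minus strand: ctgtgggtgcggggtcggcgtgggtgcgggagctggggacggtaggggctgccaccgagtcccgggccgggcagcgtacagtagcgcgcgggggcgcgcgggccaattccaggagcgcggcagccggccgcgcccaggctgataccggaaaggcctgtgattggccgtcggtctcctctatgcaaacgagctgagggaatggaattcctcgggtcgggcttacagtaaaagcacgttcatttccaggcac

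The *Runx3* upstream window held 2 RUNX motifs that lie next to each other, and the other 3 windows of 250 bases held 0. Of 32851 promoter windows of that length, 18.6% held at least 1. The windows of the upstream promoters were poor in CpG, with an observed over expected CpG ratio of 0.302 for *Runx3* and 0.165 for *Runx1*, against 0.983 and 0.978 for the downstream ones. RefSeq promoter entries were matched for 6 of the 8 genes, and the single windows of *Cbfb* and *Myb* had ratios of 1.0045 and 0.975 with 0 RUNX motifs. The window of *Runx2* held 1 RUNX motif and no CpG, and the windows of the 2 *Ikzf1* promoters, with ratios of 1.05 and 0.0712, held 0 motifs. The counts are totals per gene and do not separate the transcripts of one promoter from those of the other.

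Libraries held between 12354635 and 35367925 counts on genes, which put the floor of 3 counts between 0.0848 and 0.243 CPM. Summed CPM over 10 T lineage markers, plotted by library with 2 other marker lists, was between 2.42 and 9.61 in IgG, between 420.5 and 525 in DN1 and between 4975 and 6212 in DN2b, and *Cd3e* was at the floor in IgG. Of this sum *Il2ra* made up 2121 CPM in DN2b 2012 and 1757 in DN2b 2013. It encodes CD25, for which DN2 cells were sorted positive and DN1 cells negative, so that part of the rise was selected by the sort. Over 12 granulocyte and monocyte markers the sum was between 29964 and 70815 in IgG but between 7.53 and 8.07 in DN2b, where 7 of the 12, *Elane* and *Csf1r* among them, were at the floor. Over 7 B lineage markers it did not exceed 7.93 in any library. The DN1 library of 2012 stood apart from that of 2013, with 3184 against 180.5 summed CPM over the granulocyte and monocyte markers and 2824 against 643 over 8 mast cell and basophil markers. On the mast cell and basophil sum IgG lay between 42.3 and 195, DN2a had 392 and 564 and DN2b 254 and 470. The DN1 library of 2013 thus also lay above all IgG and DN2 libraries there. Over 7 erythroid and megakaryocyte markers the 2012 library had 660.5 summed CPM and that of 2013 had 136, and *Klf1* and *Gata1*, defining markers of that list, had 61.4 and 94.9 CPM against 0.649 and 2.06. IgG lay between 242 and 916 on that sum, of which the platelet factor gene *Pf4* alone made up between 206 and 912, while *Klf1* did not exceed 1.38 and *Gata1* 4.35 CPM there. DN2b had sums of 19.3 and 28.2. Over 8 NK and innate lymphoid markers IgG had between 172 and 360 summed CPM, DN1 650 and 445, DN2a 3519 and 1084 and DN2b 4297 and 2889, of which *Gzma* alone made up 4053 and 2579 in DN2b. *Id2*, of the same list, went the other way, with 276, 199, 223 and 123 CPM in IgG D1, D2, R1 and R2. Its log2 fold change against IgG was -2.43 in DN1 and -2.34 in DN2b. The part of these cells in the values below was not tested, and where a DN1 call changes without the 2012 library its value is given beside it. In bulk RNA, fewer cells of a type and less RNA per cell cannot be told apart, so a difference from IgG is one between mixtures of unlike cells.

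**Figure D1:**
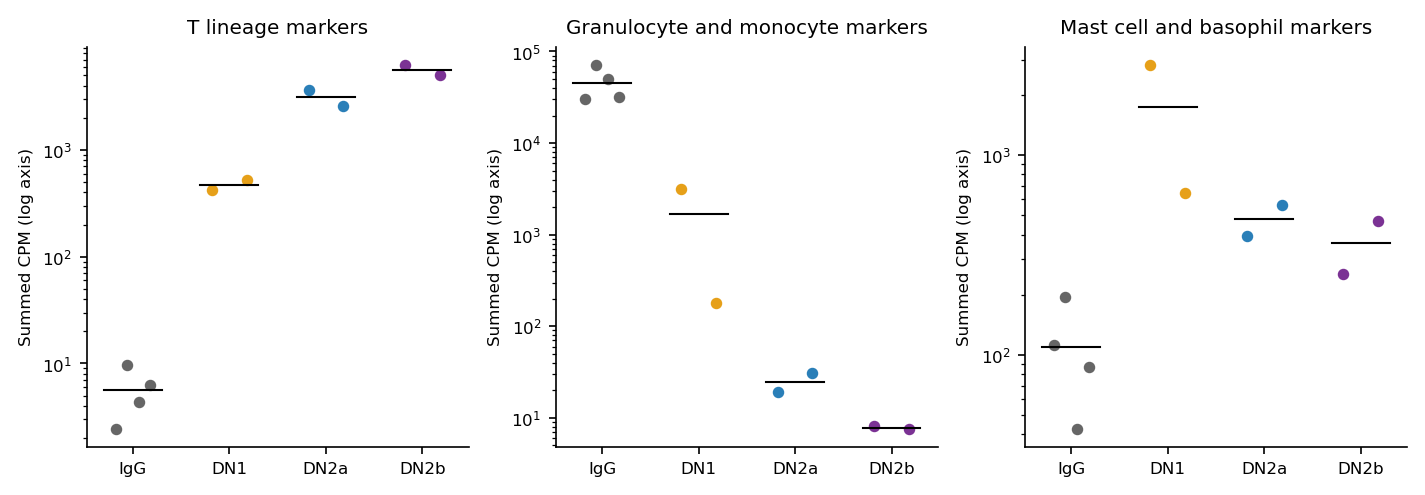
Summed CPM of 3 marker lists in each library, on log axes, with 1 point per library and a line at the group mean. T lineage markers, which include the sort marker gene *Il2ra*, rise from IgG to DN2b, granulocyte and monocyte markers fall, and the DN1 library of 2012 has the highest sum of mast cell and basophil markers (2824).

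Against IgG, the Runx side of the group showed higher *Cbfb* in all 3 DN stages and lower *Runx2* in DN2a and DN2b, calls that several alternatives lost, while *Runx1* did not pass and *Runx3* passed in DN1 under 5 alternatives only. On the Ikaros side *Ikzf2* was higher in all 3 stages, with its DN2a and DN2b calls lost under some alternatives, and *Ikzf1* did not pass in any. *Myb* passed in DN2b, a call that several alternatives lost. Of the 7 genes tested, DN1 had 2 higher and 0 lower, DN2a had 2 higher and 1 lower, and DN2b had 3 higher and 1 lower (p under 0.05 in the quasi-likelihood test of edgeR, adjusted by Benjamini and Hochberg's method over the 12221 genes). Among all tested genes, 14.3% were higher and 17% lower in DN1. The shares were 21.2% and 24.3% for DN2a and 19.9% and 22.5% for DN2b, so a called gene was common in these comparisons. The median log2 fold change of the 7 was 0.96, 0.31 and 0.39 in the 3 stages, beside 0.01, -0.05 and -0.05 over all tested genes, and without the DN1 library of 2012 the first was 0.53. The 3 comparisons share the IgG libraries. With scaling to library size alone, the median of all genes in DN1 moved to 0.27 and the split of called genes from 1753 higher and 2081 lower to 2585 and 1627. Levels below are plain CPM, while fold changes are scaled by edgeR's TMM factors.

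**Figure D2:**
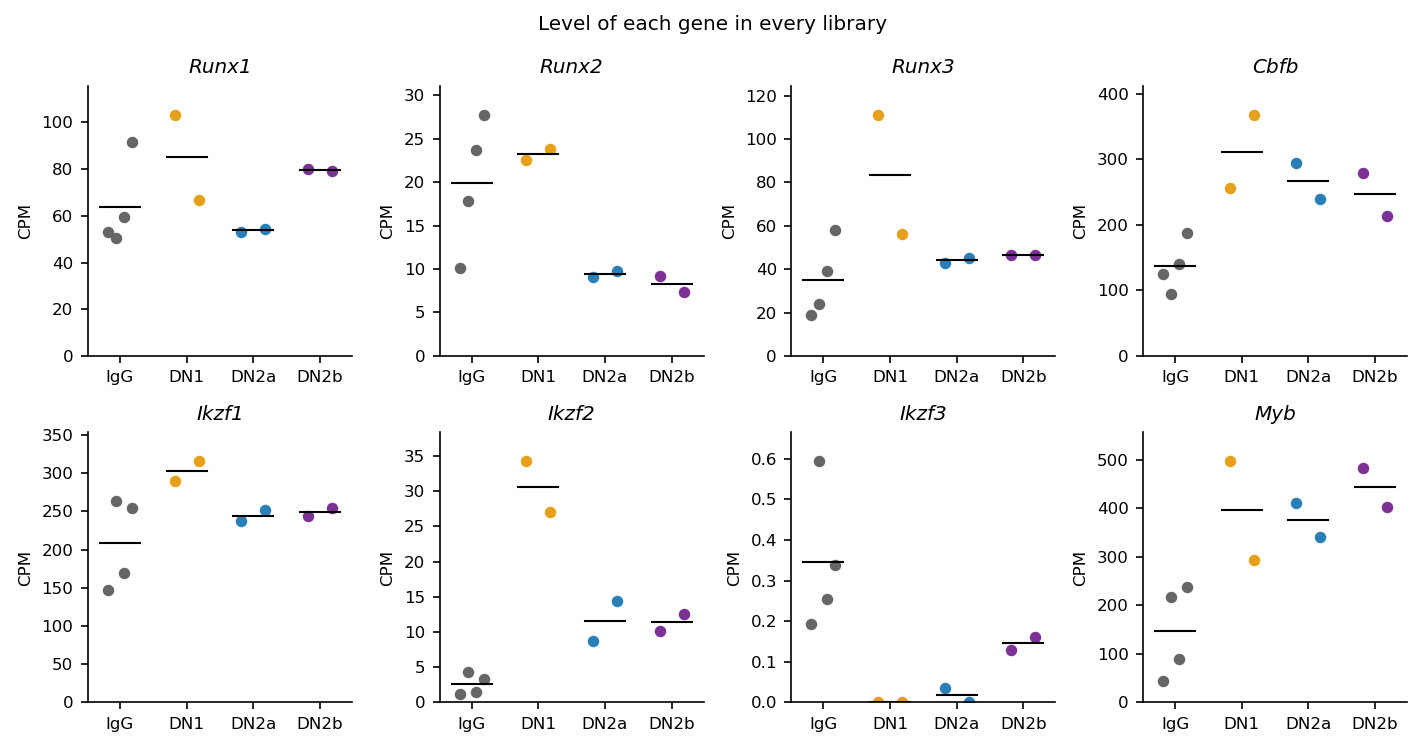
CPM of the 8 genes, with 1 point per library, a line at each group mean and a separate linear axis from 0 for each gene. *Ikzf2* and *Cbfb* lie above every IgG library in all DN libraries, *Runx2* lies below them in DN2a and DN2b, and *Ikzf3* stays under 0.6 CPM throughout.

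*Runx1*, which encodes the RUNX protein most tied to blood stem cells, had 53.0, 50.4, 59.5 and 91.7 CPM in IgG D1, D2, R1 and R2. Its levels were 103 and 66.8 CPM in DN1, with 53.0 and 54.5 for DN2a and 79.9 and 79.2 for DN2b. All groups overlapped the IgG range, and the log2 fold changes against IgG were 0.16 (SE 0.22) in DN1, -0.29 (SE 0.22) in DN2a and 0.27 (SE 0.22) in DN2b, with adjusted p of 0.606, 0.313 and 0.339. Replicates of DN2a and of DN2b were close for this gene, the higher exceeding the lower 1.03 and 1.01 times, and DN2b lay above DN2a by 0.56 (SE 0.26, adjusted p = 1.0 in edgeR). The exons of *Runx1* overlap the antisense transcript Gm26626, and 0.637% of its 36-base words occur in another gene.

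*Runx3*, whose product silences *Cd4* in cytotoxic T cells, had 18.9, 24.0, 39.2 and 58.0 CPM in IgG, a spread of 3.07 times within the group. In DN1 it had 111 CPM in 2012 and 56.0 in 2013, in DN2a 42.7 and 45.3, and in DN2b 46.7 and 46.4. The DN2 values lay inside the IgG range, and of the DN1 libraries that of 2012 alone lay above it. Its log2 fold change in DN1 was 1.02 (SE 0.35), which missed the threshold (adjusted p = 0.0534 in edgeR). Without the DN1 library of 2012 it was 0.53 (adjusted p = 0.383), and without that of 2013 it was 1.39 (adjusted p = 0.0497). Without IgG R2 it was 1.26 (adjusted p = 0.0245), against IgG D1 and D2 alone 1.51 (adjusted p = 0.0233) and with scaling to library size 1.25 (adjusted p = 0.0461), and DESeq2 gave 0.98 (adjusted p = 0.0397). In DN2a and DN2b it was 0.31 (SE 0.36) and 0.39 (SE 0.36), with adjusted p of 0.502 and 0.405. The part that the mast cell and myeloid markers of the 2012 library have in the DN1 value was not tested.

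*Runx2* (17:44495987-44814797), best known as the regulator of bone-forming cells, was the one gene of the 7 tested that fell. Its levels were 10.1, 17.9, 23.8 and 27.7 CPM in IgG, 22.6 and 23.9 for DN1, 9.07 and 9.77 for DN2a and 9.24 and 7.37 for DN2b. All 4 DN2 libraries lay below all IgG libraries, though IgG D1, at 10.1 CPM, was close to the highest of them, at 9.77, and DN1 lay inside the IgG range. Against IgG the log2 fold change was -0.01 (SE 0.33, adjusted p = 0.986) for DN1, -1.12 (SE 0.35, adjusted p = 0.0281) for DN2a and -1.30 (SE 0.36, adjusted p = 0.0173) for DN2b, so that the level in DN2b was 2.46 times lower than in IgG. Against IgG D1 and D2 alone the DN2a and DN2b values were -0.83 and -0.995, and neither passed (adjusted p = 0.135 and 0.0928). The DN2a call was also lost with scaling to library size (-1.08, adjusted p = 0.0524), without either DN2a library (-1.02 and -1.21, adjusted p = 0.16 and 0.108) and without IgG R1 or R2 (-1.02 and -1.01, adjusted p = 0.0667 and 0.057), and the DN2b call without either DN2b library (-1.50 and -1.11, adjusted p = 0.0635 and 0.114). Between DN stages *Runx2* was lower than in DN1 by log2 -1.11 (SE 0.39) in DN2a and -1.29 (SE 0.39) in DN2b without passing (adjusted p = 0.326 and 0.163 in edgeR), and the DN1 and DN2 libraries did not overlap. *Runx2* overlaps its antisense transcript Runx2os1 in exons, and 6.13% of its 36-base words occur in another gene, so part of its count is uncertain.

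*Cbfb* (8:105170674-105217989), the partner subunit of all 3 RUNX proteins, had 125, 93.8, 141 and 187 CPM in IgG. It had 255 and 367 CPM in DN1, with 294 and 239 for DN2a and 279 and 214 for DN2b. All 6 DN libraries lay above all 4 IgG libraries. Fold changes on the log2 scale were 0.96 (SE 0.26, adjusted p = 0.0218) in DN1, 0.92 (SE 0.26, adjusted p = 0.0183) in DN2a and 0.80 (SE 0.26, adjusted p = 0.0332) in DN2b, or 1.94, 1.89 and 1.74 times the IgG level. Unlike *Runx3*, *Cbfb* kept a larger change without the DN1 library of 2012, 1.25 (adjusted p = 0.0186), but without that of 2013 it was 0.60 (adjusted p = 0.191) and without IgG R1 0.97 (adjusted p = 0.0515). The DN2a call was lost without either DN2a library (0.80 and 1.03, adjusted p = 0.119 and 0.0586). That of DN2b was lost without DN2b 2012 (0.57, adjusted p = 0.245) and, at 0.81 each, without DN2a 2013, IgG D1 or IgG R1 (adjusted p = 0.0504, 0.0555 and 0.0684). Against IgG R1 and R2 alone none of the 3 passed (0.80, 0.76 and 0.66, adjusted p = 0.0677, 0.0577 and 0.093 in edgeR), and DN2b also missed against IgG D1 and D2 alone (0.93, adjusted p = 0.0624) and with no filter on low counts (0.78, adjusted p = 0.0545). None of the 36-base words of *Cbfb* occurs in another gene.

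Levels of different genes can be compared per kilobase of exon. On that scale *Runx3* was the most abundant of the 3 Runx genes in every DN library and in IgG D2, R1 and R2, and *Runx1* in IgG D1. *Runx2* was the least abundant in every library. The order of *Runx3* and *Runx1* rests on their exon lengths of 5003 and 12025 bases. By counts alone *Runx1* exceeded *Runx3* in every library but DN1 2012. *Runx3* made up 46.6% ± 5.49 (SD, n = 4) of the summed Runx CPM per kb in IgG, 62.1% ± 6.40 (n = 2) in DN1, 61.4% ± 0.409 (n = 2) in DN2a and 55.2% ± 0.507 (n = 2) in DN2b. *Runx1* made up 37.8%, 27.2%, 31.2% and 39.2%, and *Runx2* 15.5%, 10.8%, 7.44% and 5.57%. *Runx3* thus had a larger share in each DN library than in each IgG library, where the highest was 51.8%, while *Runx2* had its smallest shares in DN2b, 6.14% and 5.00%. The shares use all annotated exons and shift if a shorter transcript is used. The summed Runx level itself was 14.5 ± 5.82 CPM per kb in IgG and 14.3 ± 0.515 in DN2a, and it reached 33.3 in the DN1 library of 2012. *Cbfb*, at 39.2 ± 11.2 CPM per kb in IgG and between 70.8 and 89.5 in the means of the DN stages, exceeded the summed Runx level in every group mean.

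**Figure D3:**
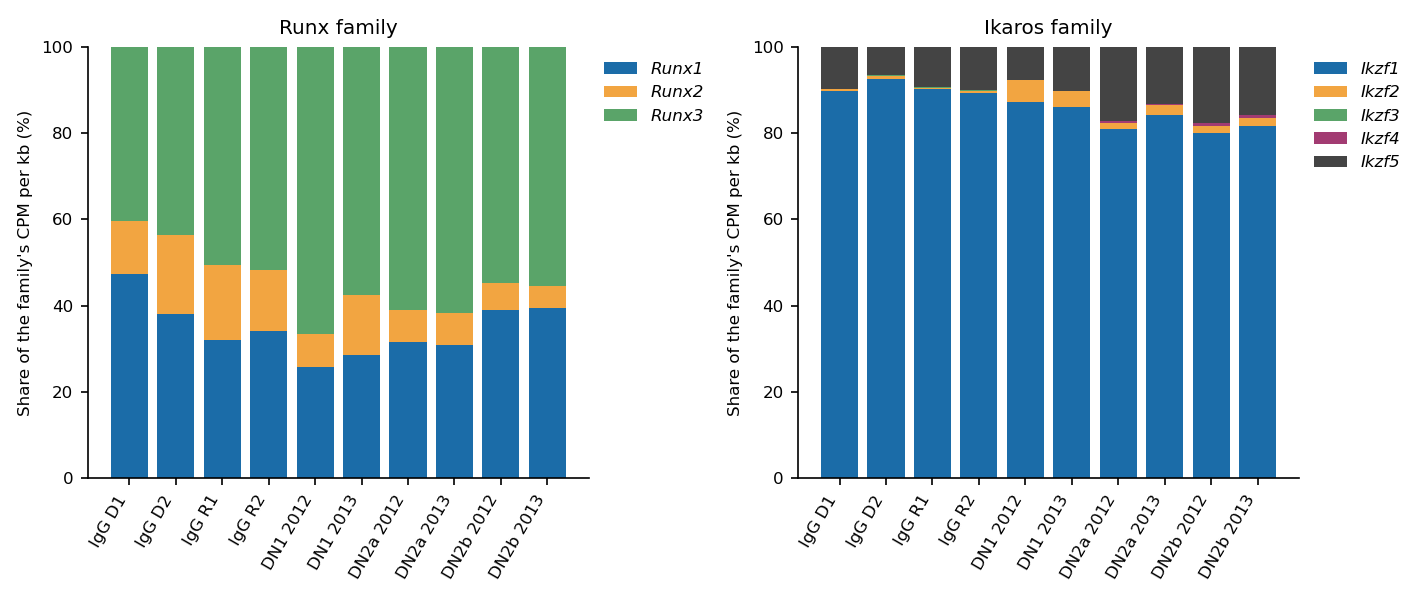
Share of each gene in its family's summed CPM per kilobase of exon, in percent, with 1 stacked bar per library. *Runx3* (green, left) takes the largest share in every DN library and in every IgG library but D1, and *Ikzf1* (blue, right) holds between 80.0% and 92.5% of the Ikaros family in every library.

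Ratios of counts within a library do not depend on how libraries are scaled, and their means in the 6 DN and 4 IgG libraries were compared by a two-sided exact permutation test, which cannot go below 0.00952 here. It treats the 6 DN libraries as independent, although the study made all DN stages from each LSK replicate. With the 3 stages of a year averaged into 1 value, 2 values stand against 4 and the smallest possible p is 0.133, so that no ratio can pass. The log2 ratio of *Runx2* to *Runx1* was -1.73 ± 0.465 (SD) in IgG, -1.84 ± 0.4999 in DN1, -2.51 ± 0.0503 in DN2a and -3.26 ± 0.220 in DN2b. The DN mean was below that of IgG (difference -0.80, p = 0.0952 in the exact test and 0.0952 after adjustment over the 5 ratios tested), and 4 of 6 DN libraries, all of DN2, lay below all IgG libraries. *Runx3* to *Runx1* was -0.95 ± 0.411 in IgG, -0.07 ± 0.255 in DN1, -0.29 ± 0.0343 in DN2a and -0.77 ± 0.00220 in DN2b. The DN mean was higher by 0.58 (exact permutation p = 0.0571, adjusted 0.0714), with DN1 and DN2a above all IgG libraries and DN2b inside their range. *Cbfb* to the summed Runx counts was higher in DN by 0.74 (exact permutation p = 0.0381, adjusted 0.0635), in 5 of 6 libraries, and the exception was the DN1 library of 2012. None of the 3 Runx ratios passed after adjustment.

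**Figure D4:**
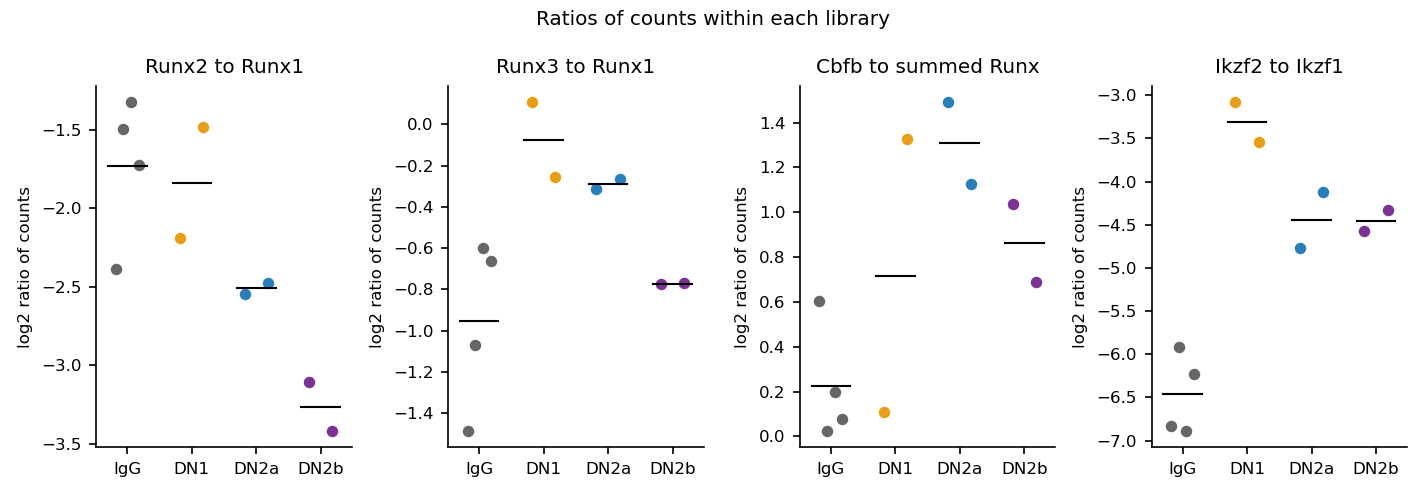
Log2 ratios of counts within each library for 4 pairs of genes, with 1 point per library and a line at each group mean. The ratio of *Ikzf2* to *Ikzf1* is above -4.8 in every DN library and below -5.9 in every IgG library, while the 3 Runx ratios overlap between IgG and at least 1 DN stage.

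*Ikzf1* (11:11685003-11772926), the gene of Ikaros itself, had 147, 263, 169 and 254 CPM in IgG. Its levels were 290.4 and 315 CPM in DN1, with 237 and 251 for DN2a and 244 and 255 for DN2b. DN1 lay above all IgG libraries and the DN2 stages lay inside the IgG range, but the log2 fold changes of 0.28 (SE 0.26), 0.16 (SE 0.27) and 0.18 (SE 0.27) did not pass (adjusted p = 0.453, 0.644 and 0.596 in edgeR). No 36-base word of *Ikzf1* occurs in another gene.

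*Ikzf2* (1:69531214-69687245), which encodes Helios, a family member known from regulatory T cells and early progenitors, changed most among the 7. Its levels were 1.26, 4.35, 1.41 and 3.37 CPM in IgG, 34.2 and 27.0 for DN1, 8.71 and 14.4 for DN2a and 10.2 and 12.6 for DN2b. Every DN library lay above every IgG library, and both DN1 libraries lay above every DN2 library. The log2 fold change was 3.28 (SE 0.50, adjusted p = 0.00203) in DN1, 2.08 (SE 0.50, adjusted p = 0.00889) in DN2a and 2.05 (SE 0.50, adjusted p = 0.0106) in DN2b, or 9.70, 4.24 and 4.14 times the IgG level. In DN1 the call was kept under all 17 alternatives tried, and it was 3.17 (adjusted p = 0.0104) without the 2012 library. In DN2a and DN2b it was lost against IgG D1 and D2 alone (adjusted p = 0.0597 and 0.0667) and without the 2013 library of that stage (1.63 with adjusted p = 0.0854, and 1.93 with adjusted p = 0.0521). The decline from DN1, -1.20 (SE 0.60) in DN2a and -1.23 (SE 0.60) in DN2b, did not pass (adjusted p = 0.525 and 0.419 in edgeR). Its exons overlap the antisense transcript Gm29114, and 0.968% of its 36-base words occur in another gene.

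The log2 ratio of *Ikzf2* to *Ikzf1* was -6.47 ± 0.476 in IgG, -3.31 ± 0.325 in DN1, -4.44 ± 0.458 in DN2a and -4.45 ± 0.171 in DN2b. All 6 DN libraries lay above all 4 IgG libraries, and the difference was 2.40 (exact permutation p = 0.00952, the smallest possible over 6 and 4 libraries, adjusted 0.0238). With 1 value per year it was the same size, with p = 0.133, the smallest that 2 against 4 allow in the exact test. *Ikzf2* remained a minor member per kilobase, with 0.527% of the summed Ikaros family level in IgG and 4.39%, 1.94% and 1.84% in the 3 DN stages. *Ikzf1* made up 90.5%, 86.7%, 82.6% and 80.8% in the same order.

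*Ikzf3* (11:98464902-98546031), the gene of Aiolos, which is known from later lymphocytes, was close to absent. It had 4, 15, 9 and 10 counts in the IgG libraries (0.194 to 0.593 CPM) and between 0 and 2 counts in the DN libraries, all at or under the floor of 3 counts. Its within-library log2 ratio to *Ikzf1* was lower in all 6 DN libraries than in any IgG library (difference -2.92 with 0.5 added to each count, exact permutation p = 0.00952, adjusted 0.0238), and this size rests on the added 0.5, since it was -1.76 with 2 added. With 1 value per year the exact permutation p was likewise 0.133. The IgG values are themselves near the floor.

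The other members of the Ikaros family, *Ikzf4* (Eos) and *Ikzf5* (Pegasus), were chosen as neighbours of the 8. *Ikzf5* had 15.8, 18.5, 17.3 and 28.2 CPM in IgG, 25.2 and 37.0 for DN1, 49.5 and 39.2 for DN2a and 53.1 and 48.9 for DN2b. It rose by log2 1.10 (SE 0.25, adjusted p = 0.00732) in DN2a and 1.30 (SE 0.25, adjusted p = 0.00367) in DN2b but had 0.41 (SE 0.26, adjusted p = 0.253) in DN1, and its share of the family per kilobase was 8.92% in IgG, 8.93% in DN1, 15.2% in DN2a and 16.7% in DN2b. *Pstk* overlaps its exons on the other strand, which leaves part of this count uncertain. *Ikzf4* had between 0 and 0.034 CPM in IgG, 0 and 0.108 for DN1, 1.42 and 0.287 for DN2a and 2.21 and 1.94 for DN2b. It was at the floor in IgG and passed in DN2a and DN2b (adjusted p = 0.00573 and 0.00235 in edgeR), where it was still under 1% of the family, and its exons overlap Gm26876 on the other strand. Since it reached 1 CPM only in DN2a 2012 and the DN2b libraries, it entered the test only through the groups where it is high. Its calls there are therefore no separate evidence of a rise. Without DN2a 2012 neither gene passed in DN2a (adjusted p = 0.0713 for *Ikzf5*, at 0.96, and 0.0923 for *Ikzf4*).

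*Myb* (10:21124935-21160984) encodes the MYB protein of dividing progenitors. Its levels were 44.4, 217, 89.3 and 238 CPM in IgG, 497 and 294 for DN1, 410.5 and 340.5 for DN2a and 484 and 404 for DN2b. Every DN library lay above every IgG library, but the IgG libraries themselves differed by 5.37 times. The log2 fold change was 1.17 (SE 0.53, adjusted p = 0.123) in DN1, 1.30 (SE 0.53, adjusted p = 0.0709) in DN2a and 1.54 (SE 0.53, adjusted p = 0.0409) in DN2b, and the last passed. It did not pass in DN2b without IgG R1 (1.36, adjusted p = 0.0927), without either DN2b library (1.38 and 1.70, adjusted p = 0.175 and 0.0877), without either DN2a library (1.54 each, adjusted p = 0.0601 and 0.0587), against IgG D1 and D2 alone (1.52, adjusted p = 0.127) or in a fit of the 2 groups alone (1.53, adjusted p = 0.0753), and without the DN1 library of 2012 the DN1 value was 0.82 (adjusted p = 0.408). Without IgG D2 it passed in all 3 stages (1.52, 1.66 and 1.90, adjusted p = 0.0487, 0.0265 and 0.0167), and DN2a also passed with DESeq2 (1.26, adjusted p = 0.0456) and against IgG R1 and R2 alone (1.29, adjusted p = 0.0365). *Myb* shares exons with the antisense transcript Gm26577, and 5.08% of its 36-base words occur in another gene. Of its paralogs, *Mybl2*, a cell cycle gene, had 36.4, 40.7, 66.2 and 112 CPM in IgG and between 28.2 and 111 in DN, and *Mybl1* did not exceed 2.51 CPM. Neither paralog passed in any comparison.

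**Figure D5:**
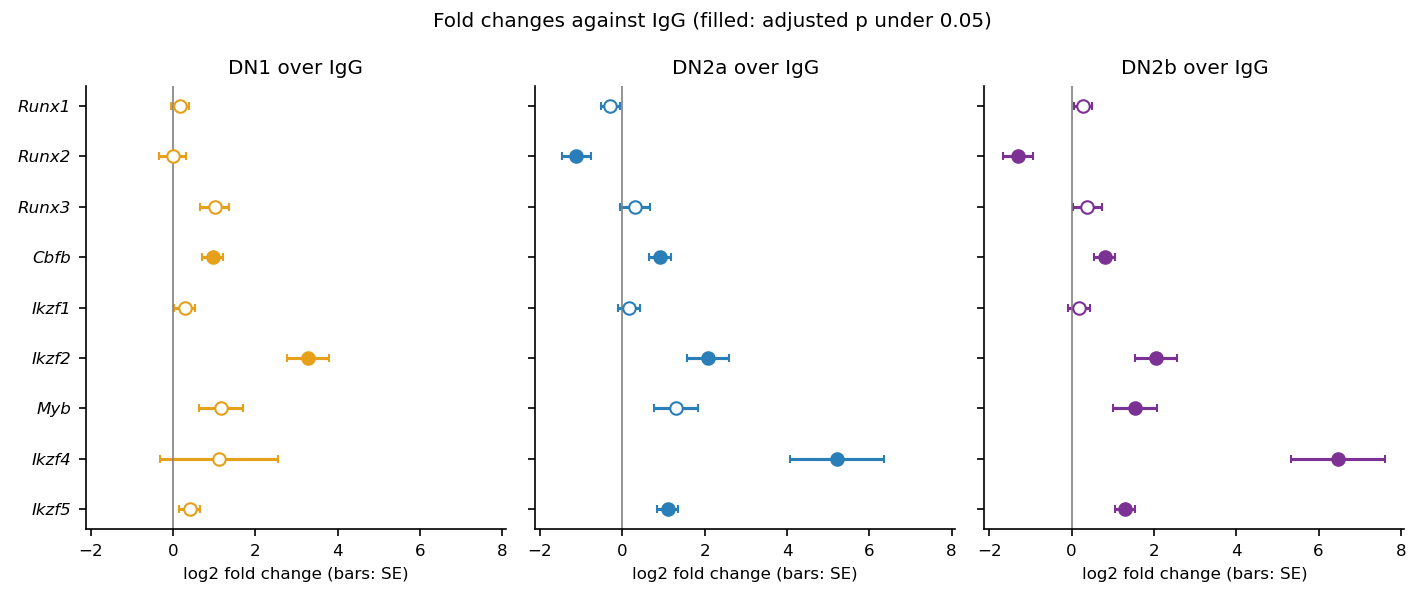
Log2 fold changes of 7 of the genes and of the paralogs *Ikzf4* and *Ikzf5* in DN1, DN2a and DN2b over IgG, with bars for the SE and filled points for an adjusted p under 0.05 in edgeR. *Cbfb* and *Ikzf2* are filled in all 3 panels, *Runx2* is filled on the negative side in DN2a and DN2b, and *Myb* is filled in DN2b. *Ikzf4* was at the floor in IgG, so the size of its values is not to be read.

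Among the DN stages, 0 of the 7 genes passed in either direction in any comparison. The background was 0.196% higher and 0.205% lower of all tested genes in DN2a over DN1, 0 and 0 in DN2b over DN2a, and 1.01% and 0.892% in DN2b over DN1, so a count of 0 among 7 is near what all genes show. In DN2b over DN2a edgeR's quasi-likelihood test called 0 genes, with 335 at an unadjusted p under 0.05, and DESeq2 called 29. With scaling to library size the split moved from 24 higher and 25 lower to 17 and 26 in DN2a over DN1, and from 124 and 109 to 104 and 137 in DN2b over DN1, as the median of all genes moved to -0.22 and -0.21. *Runx3* had log2 -0.71 (SE 0.42) in DN2a and -0.63 (SE 0.42) in DN2b against DN1, which rest on the high 2012 library of DN1, and *Ikzf5* had 0.69 (SE 0.30) and 0.89 (SE 0.30), with adjusted p of 0.592, 0.573, 0.451 and 0.211. The *Ikzf5* values also rest on DN1, at 0.38 and 0.59 without its 2012 library and 1.07 and 1.28 without that of 2013.

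Of 15 NuRD and CtBP genes, through which Ikaros proteins silence genes, 5 were higher and 0 lower in DN1, against 7 and 1 for DN2a and 6 and 1 for DN2b, with a median log2 fold change of 0.57, 0.72 and 0.68. Of all tested genes, 14.3% were higher and 17% lower in DN1, 21.2% and 24.3% for DN2a, and 19.9% and 22.5% for DN2b, and these shares are the background of each list that follows. Without the DN1 library of 2012, where 11.1% of 12121 tested genes were higher and 11.8% lower, 3 of the 15 were higher and 1 lower in DN1. In DN2b the histone-binding subunits *Rbbp7* and *Rbbp4* rose by log2 1.36 (SE 0.24, adjusted p = 0.00255) and 1.18 (SE 0.25, adjusted p = 0.0056), and the deacetylase *Hdac2* by 1.14 (SE 0.19, adjusted p = 0.00176). Without DN2b 2012 *Rbbp4* missed the threshold (adjusted p = 0.0562). The corepressor *Ctbp2* fell from a mean of 48.8 CPM to 3.38 and 12.1 (log2 -2.73, SE 0.54, adjusted p = 0.00401), with -2.09 without DN2b 2012 and -3.86 without DN2b 2013, both called. *Mta1*, a NuRD scaffold, rose in DN1 by 1.11 (SE 0.24, adjusted p = 0.00939), and without the 2012 library it had 0.89 (adjusted p = 0.0639).

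Of 8 Groucho and ETO corepressors tested, which RUNX proteins recruit, 1 was higher and 0 lower in DN1, and 1 was higher and 3 lower in both DN2a and DN2b, with medians of 0.10, -0.46 and -0.26. For so few genes these counts are near the 14.3% higher and 17% lower of all genes in DN1, and the 24.3% and 22.5% lower for DN2a and DN2b. In DN2b *Tle1* rose from a mean of 4.41 CPM to 26.5 and 12.5 (log2 2.08, SE 0.56, adjusted p = 0.0157), while *Tle3* fell from 119 to 61.0 (-1.001, adjusted p = 0.0394), *Aes* from 283 to 165 (-0.84, adjusted p = 0.0243) and *Tle6* from 3.11 to 0.065 and 0.405 (-3.89, adjusted p = 0.0251). *Tle1* and *Tle6* missed without DN2b 2012 (adjusted p = 0.17 and 0.149), *Aes* without either DN2b library or IgG R1 (up to 0.171), and *Tle3* without either DN2a or DN2b library, IgG R1 or IgG R2 (up to 0.215). In DN1 it was *Cbfa2t3*, the ETO family gene of blood progenitors, that rose, from 19.7 to 80.8 mean CPM (log2 1.80, SE 0.43, adjusted p = 0.0132). This rests on the 2012 library, at 117 CPM, since that of 2013 had 44.7 beside 35.1 in IgG R2, and without the 2012 library it was 1.04 (adjusted p = 0.146), which left 0 of the 8 called in DN1. Of 9 acetyltransferase and SWI/SNF coactivators, 2 were higher and 1 lower in DN1, against 1 and 2 for DN2a and 1 and 1 for DN2b, with medians of 0.09, -0.83 and -0.74. These counts too are near the shares of all genes, 21.2% higher and 24.3% lower for DN2a and 19.9% and 22.5% for DN2b, and without DN1 2012 0 of the 9 passed in DN1 and the median of the list turned to -0.39. *Ep300*, an acetyltransferase that MYB binds, fell from a mean of 84.5 CPM to 11.7 and 29.1 in DN2b (log2 -2.09, SE 0.49, adjusted p = 0.00862), and the remodeller subunit *Smarcb1* rose from 68.1 to 133 (0.90, SE 0.20, adjusted p = 0.0072). Both missed without DN2b 2012 (adjusted p = 0.0744 and 0.0925).

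Genes that textbooks give as bound or regulated by RUNX factors moved in both directions. Of 18 such genes 14 were tested, and 7 were higher and 6 lower in DN1, against 6 and 6 for DN2a and 6 and 5 for DN2b, with medians of 1.42, 1.95 and 1.40. The shares of all tested genes were 14.3% and 17% in DN1, 21.2% and 24.3% for DN2a and 19.9% and 22.5% for DN2b. Without the DN1 library of 2012, 6 were higher and 5 lower in DN1, and the median of the list turned to -0.55. In DN2b the myeloid genes *Mpo* (log2 -14.93, SE 1.90, adjusted p = 0.000557), *Csf1r* and *Cebpa* were the ones that fell most, the last 2 to the floor, at least 4131-fold and 882-fold lower than in IgG. *Cd3e*, a T cell receptor subunit gene, was at the floor in IgG and had a mean of 103 CPM in DN2b, at least 914-fold higher. *Gzmb*, a cytotoxic granule protease gene, had a mean of 1280 CPM in DN1 against 0.646 in IgG (log2 10.64, SE 0.88, adjusted p = 0.000132), but the DN1 libraries differed, with 2310.3 CPM in 2012 and 249 in 2013, and without the former it was 8.41 (adjusted p = 0.000117). *Tcf7*, *Itgae* and *Bcl11b* belong to the same list, and *Bcl11b*, the T lineage commitment factor, rose again from DN1 to DN2b, from 2.05 to 22.5 mean CPM (log2 3.66, SE 0.60, adjusted p = 0.0205), a call lost without any of 5 libraries, the 2 of DN1, the 2 of DN2b and DN2a 2012 (adjusted p up to 0.114). *Cd4* and *Cd8a* did not pass the filter. Of the 18, 6 are also lineage markers in the lists used here, and the part of the mixture of cells in these counts was not tested. The lists also share genes, since *Cd8a*, *Il7r* and *Rag1* are in the Ikaros list below as well, and *Cd4* and *Mpo* in the MYB list. Counts of the 3 lists are therefore not independent.

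Of 14 Ikaros-linked genes 12 were tested, and 9 were higher and 1 lower in DN1, against 8 and 2 for DN2a and 8 and 0 for DN2b, with medians of 4.16, 4.52 and 5.85. The higher genes were thus 9 of 12 in DN1 where 14.3% of all genes were higher, and 8 of 12 in DN2a and in DN2b, where the shares were 21.2% and 19.9%. Without the DN1 library of 2012, 9 were higher and 0 lower in DN1, with *Hes1* at 8.26 and *Dtx1* at 7.69 (adjusted p = 0.000178 and 0.000526). The Notch targets *Hes1* and *Dtx1* were among them, at means of 53.9 and 74.3 CPM in DN1 against 0.160 and 0.368 in IgG (log2 8.10, SE 0.51, adjusted p = 5.42e-05, and 7.34, SE 0.63, adjusted p = 0.00017). *Il2ra*, which encodes CD25, the sort marker of DN2 cells, rose from 24.1 mean CPM in DN1 to 1939 in DN2b (log2 6.53, SE 0.76, adjusted p = 0.00523). *Dntt* and *Rag1*, of antigen receptor rearrangement, had between 0 and 5 counts in the IgG libraries, with means under the floor there, and 69.4 and 21.6 mean CPM in DN2b, at least 617-fold and 192-fold higher (adjusted p = 3.46e-05 and 0.000772 in edgeR). The bound of *Rag1* rests on DN2b 2012, at 34.7 CPM beside 8.42 in 2013, and without it was 74.8-fold. *Flt3* was lower in DN2b than in DN1, with 1.24 and 4.86 CPM against 24.1 and 97.7 (log2 -4.20, SE 0.82, adjusted p = 0.0378), but this call was lost without any of 8 of the 10 libraries, with values from -5.44 to -2.74 over all 10. The call of *Il2ra* was lost without DN1 2012 (6.69, adjusted p = 0.0539). Of the 14, 5 are also in a marker list.

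Of 14 MYB-linked genes 13 were tested, and 4 were higher and 4 lower in DN1, against 5 and 4 for DN2a and 4 and 3 for DN2b, with medians of 0.51, 0.84 and 0.74. Beside them stand 14.3% higher and 17% lower of all genes in DN1, 21.2% and 24.3% for DN2a and 19.9% and 22.5% for DN2b, and without DN1 2012 4 were higher and 3 lower in DN1. The neutrophil protease genes *Elane* and *Prtn3* fell in DN2b, *Elane* to 0 counts in both libraries, from 457, 6005, 569 and 1563 CPM in IgG. Its mean of 2149 CPM in IgG gives at least 9812-fold lower, which rests on IgG D2, since without that library the mean was 863 and the bound 3941-fold. *Prtn3* fell by log2 -10.91 (SE 1.37, adjusted p = 0.000512). *Gata3*, which MYB is known to activate in T cells, rose by 7.82 (SE 0.36, adjusted p = 1.01e-05). From DN1 to DN2b the survival gene *Bcl2* rose from 11.6 to 121 mean CPM (log2 3.58, SE 0.37, adjusted p = 0.0034) and *Ets1* from 16.8 to 78.6 (2.42, SE 0.45, adjusted p = 0.0338). That of *Bcl2* passed with each library left out in turn, and that of *Ets1* was lost without any of the 6 DN libraries or IgG R1 (adjusted p up to 0.193). Levels of *Myb* itself did not pass in that comparison. Of the 14, 5 are also in a marker list, among them *Kit*, a marker used in the sorts.

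Across the 10 libraries, which fall into IgG and DN groups, the genes most like each of the 7 in log2(CPM + 1) were found by Pearson's r, given as a description. *Cbfb* ran closest to *Syncrip* (r = 0.987), *Gspt1* (0.986) and *Ppp1cc* (0.978), and *Ikzf2* to *Rgs12* (0.987), *Glis2* (0.982) and *Zfp184* (0.979). *Rgs12*, which encodes a regulator of G protein signalling, had means of 6.03 CPM in IgG, 46.6 in DN1, 21.5 in DN2a and 18.7 in DN2b, the same order as *Ikzf2*. For *Runx2* they were *Kcnk12* (0.959), *Gtf2ird1* (0.946) and *Senp1* (0.934), and for *Runx3* *Kin* (0.988), *Gramd4* (0.972) and *Ccar2* (0.970). *Myb* was most like *Phpt1* (0.974), *Sdr39u1* (0.972) and *2700094K13Rik* (0.961), *Ikzf1* like *Slc38a2* (0.971), *Agbl5* (0.963) and *Cdc40* (0.960), and *Runx1* like *Mir17hg* (0.916), *Kif7* (0.893) and *Rapgef2* (0.889). The values for *Runx1* were the lowest of the 7.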

How the data were processed

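The authors sequenced total RNA from stranded libraries, aligned the first 36 bases of a read to mm10 and deposited raw counts per gene symbol with 5 summary lines per library, which were dropped. The submitters' processing notes name TopHat2 2.12, HTSeq 0.6.1p1 and Cufflinks 2.2.1. The strand setting and annotation of the counting are not given in the sources used here, so overlapping and antisense genes are uncertain. Reads aligned to several places, 16.4% to 30.1% of those tallied, were not assigned to genes.

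The 8 genes, the gene lists and the paralogs were chosen with earlier results of these data known. One fit of 4 groups and 10 libraries used edgeR 4.0.16 (quasi-likelihood test, TMM scaling) in R 4.3.3, with a threshold of 0.05 on the adjusted p. The SE is the log2 fold change divided by the square root of its F value. Coordinates and exon lengths are those of GENCODE on GRCm38. On simulated counts for DN1 over IgG, 98 of 200 genes changed by a log2 fold change of 2 were called with 2 false calls, and for DN2b over DN1 19 were called with 1 false call. The simulation gave every gene the same spread, the common dispersion of the fit (0.1889). Its shares therefore do not carry over to a gene of smaller or larger spread.

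Named were the 8 genes and their paralogs, overlapping genes, up to 4 called genes of a list with the largest change in a comparison and the 3 genes most like each of the 7. *Cd4* and *Cd8a* were added after their values were seen. Folds against a group at the floor, or with a mean under it, are lower bounds against 3 counts, averaged over its libraries. The main fit had no replicate term, so its comparisons of DN stages were unpaired. In the tests, same-year libraries were paired across DN stages only in the replicate block and in the ratios averaged by year. The pairing was chosen since the study states that DN stages came from each LSK replicate and the labels of DN2a and DN2b share dates. Differences between the years correlated across genes by 0.0842 for DN1 with DN2a, 0.287 for DN1 with DN2b and 0.270 for DN2a with DN2b.

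Alternatives were DESeq2 1.42.0, scaling to library size, no filter, filterByExpr, the groups compared alone, IgG D or R libraries alone, each library left out, the DN libraries with a replicate block and, for ratios, 2 added in place of 0.5. A fit of the DN libraries with no block was added after seeing the data. Summaries were made in Python 3.11.15 (pandas 2.3.3, numpy 2.4.6), exact tests with scipy 1.17.1 and plots with matplotlib 3.10.9.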

Additional observations from a re-analysis of the deposited data

How the results depend on the processing

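No alternative turned the direction of a call among the genes described. Of 269 recomputed counts and ratios, 217 stayed within 1.5 times or on the same side of the threshold. Counts of 0 that stayed 0, as between DN stages, are among the 217. Ratios against IgG D or R libraries alone were judged instead by a shift below the larger SD of the 2 groups. Against IgG D1 and D2 alone, 2329 genes passed in DN1 and 3264 in DN2b, with 3 of the 7 genes described in DN1, 1 in DN2a and 0 in DN2b, and against IgG R1 and R2 alone 1 passed in DN1. In DN2a over DN1, where 49 genes passed, 474 passed with DESeq2, 101 with no filter, 25 with the 2 groups alone and 32 in the 6 DN libraries with no replicate block. In DN2b over DN1, where 233 passed, DESeq2 gave 822, with 1 of the 7 (*Runx2*, adjusted p = 0.0447), and the 2 groups alone gave 80. In DN2b over DN2a 29 passed with DESeq2 and 1 with no filter. With the replicate block, 58 genes passed for DN2a over DN1, 233 for DN2b over DN1 and 0 for DN2b over DN2a, and the block changed no call of the 7. The causes were not tested.

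Leaving out 1 library gave between 1867 and 4163 genes in DN1 over IgG (lowest without DN1 2013), 2686 and 6016 in DN2a (without DN2a 2012), 2683 and 5674 in DN2b (without DN2b 2012), 0 and 229 in DN2a over DN1 (highest without DN1 2013), 51 and 383 for DN2b over DN1 (lowest without DN2b 2013, highest without DN1 2013), and 0 and 1 for DN2b over DN2a. Of the 7 genes, between 1 and 3 passed in DN1 over IgG, 0 and 4 in DN2a and 1 and 4 in DN2b, and 0 in any comparison of DN stages. The fewest were without IgG R1 in DN1, without DN2a 2013 in DN2a and without either DN2b library in DN2b. Where 1 library of a stage was left out, the other was assumed to vary like the remaining groups. The ratio differences ran from -1.02 to -0.63 for *Runx2* to *Runx1*, 0.40 to 0.69 for *Runx3* to *Runx1*, 0.63 to 0.91 for *Cbfb* to summed Runx, 2.20 to 2.58 for *Ikzf2* to *Ikzf1* and -3.29 to -2.61 for *Ikzf3* to *Ikzf1*. *Cbfb* to summed Runx passed without DN1 2012. Without any 1 IgG library both Ikaros ratios had an adjusted p of 0.0595 in the exact permutation test, so that both calls were lost. The adjusted value depends on how many of the ratios reach the smallest p that 6 against 3 libraries allow. The number of libraries alone therefore did not force these losses.

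Values that changed sign were not calls. They were *Runx2* in DN1, near 0 and reaching 0.30 with IgG D1 and D2 alone, 0.22 with library size scaling, 0.0065 with the 2 groups alone and between -0.21 and 0.10 with 1 library left out, *Runx1* in DN1 (-0.11 without DN1 2012, 0.39 without DN1 2013 and up to 0.42 with library size scaling), *Ikzf4* in DN1, at the floor (-2.08 without DN1 2013, 2.15 without DN1 2012 and up to 3.01 with IgG D1 and D2 alone), *Runx3* in DN2a (-0.072 with IgG R1 and R2) and *Ikzf1* in DN2a (-0.0026 with IgG D1 and D2). On the simulated counts, with 2 libraries a stage and the same spread for every gene, a change of 2 on the log2 scale was often missed. How often this holds for the genes described, whose spreads differ, was not tested.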
